A study of Mus musculus with 6 samples.

Results

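The genes described here are 8 genes of the Hedgehog pathway and of the cells that answer it in the ovary, measured in mouse granulosa cells (GCs) after cyclophosphamide (CTX). They are the ligands Ihh and Dhh, the signal transducer Smo, the receptor Ptch1, the transcription factors Gli2 and Gli1, the ligand trap Hhip and the theca hormone Insl3. The 8 genes were taken by name from a table of 54532 genes, and the rule used gene names alone. Of the 8, 6 had a mean level of at least 0.5 FPKM (fragments per kilobase of exon, made comparable between samples by the authors) and were tested, while Gli1 and Hhip fell under this limit and are given as values.

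The study asked how CTX, an alkylating drug of chemotherapy, alters transcription in GCs within hours. Female ICR mice aged 3 weeks, all of them primed with 5 IU of PMSG, a gonadotropin that drives follicle growth, received a single intraperitoneal injection of 120 mg/kg CTX or of PBS 22 h later. GCs were collected 6 h after this injection, and each of the 3 samples of a group held the GCs of 3 mice. No sorting of the cells is described in the sources used here.

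Hedgehog ligands are secreted proteins that bind PTCH1 on the receiving cell, which frees SMO and lets the GLI factors act in the nucleus. Gli1, Ptch1 and Hhip are themselves transcribed in response, so their levels are commonly read as a measure of pathway activity in the receiving cell. In the ovary, GCs of growing follicles make IHH and DHH, and the precursors of the theca, the steroid-making layer outside the follicle, are the main responders. Insl3 is a peptide hormone made by theca cells and, in the male, by Leydig cells.

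Reads rebuilt from FPKM and gene length came to between 16005869 and 18455011 per sample. CTX replicate 2 stood apart from the other 5 samples. On the first principal component of the tested genes, which held 46.8% of the variance, it lay at 74.7 and the others between -26.6 and 13.2. It was also the CTX sample farthest from the PBS mean for 55.3% of all tested genes. The 8 genes and a part of the other genes and lists are therefore also given without it. The labels name the cells as ovarian GCs, and the summed FPKM of 13 granulosa markers, led by Inha, lay between 13877 and 15207 in PBS and between 11908 and 12820 in CTX. The p-values rest on the spread between pools of mice.

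None of the 6 tested genes was a DEG, called here at an adjusted p below 0.05 with more than a 2-fold change in limma, against 0.961% of all 14463 tested genes. With no fold threshold the count was also 0, against 1.76% of all tested genes. At an unadjusted p below 0.05 there were 2, Ihh and Smo, beside 19.6% of all tested genes. limma's voom on the rebuilt reads also called none of the 6, with the same 2 genes at an unadjusted p below 0.05. Ihh was the 1 gene with every CTX sample below every PBS sample, a pattern of 14.1% of all tested genes, and Smo the 1 with every CTX sample above, a pattern of 15.0%. When samples were weighted by limma's arrayWeights, 4 of the 6 (Ihh, Smo, Dhh and Insl3) had an adjusted p below 0.05, at 0.000683, 0.00808, 0.0381 and 0.00548. Insl3 alone passed 2-fold, but it was under 0.5 FPKM in every PBS sample and was tested only through CTX. In that fit 366 of all tested genes were called higher and 291 lower.

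In PBS the mean levels per length fell in the order Ihh, Smo, Dhh, Ptch1, Gli2, Insl3, Gli1 and Hhip. Each neighbour in this order was separated in all 3 PBS samples except Insl3 and Gli1, whose ranges of 0.270 to 0.396 and 0.207 to 0.272 FPKM overlapped. In CTX, Insl3 and Gli2 changed places with overlapping ranges, and the other positions were as in PBS.

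**Figure D1:**
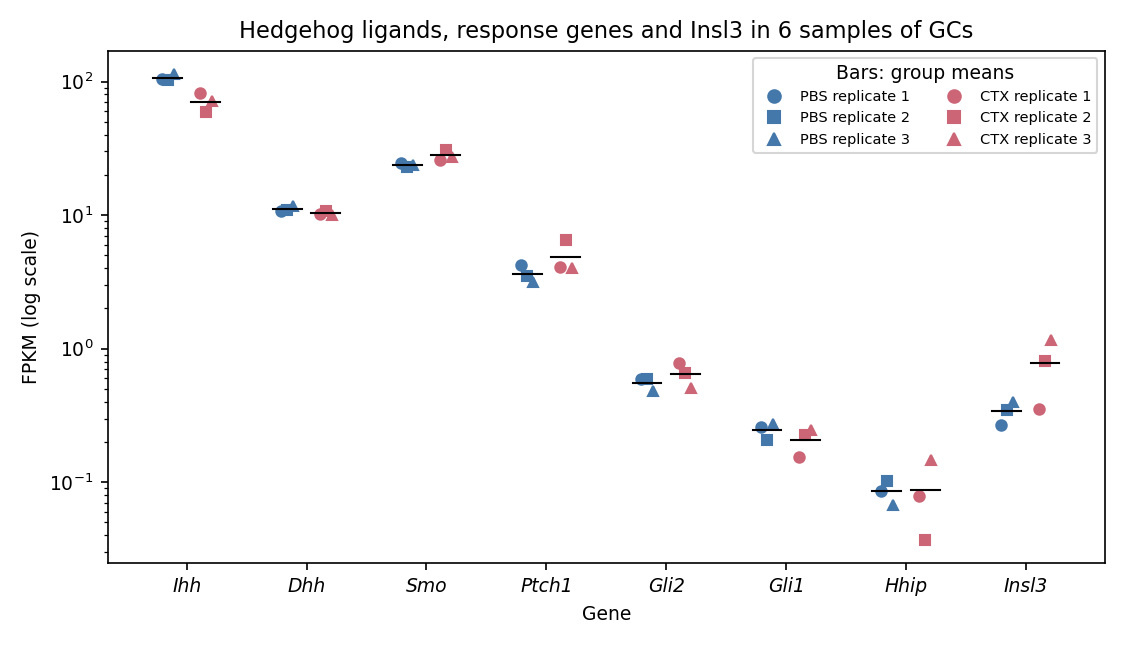
FPKM (log axis) of the 8 genes in each sample, with PBS in blue, CTX in red, a marker shape for each replicate number and a black bar for the group mean. Ihh lies near 100 FPKM in PBS and is lower in all 3 CTX samples, while Gli1 and Hhip lie below 0.3 FPKM in all 6 samples.

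Ihh and Dhh are the granulosa ligands, and the 250 bases upstream of their start sites are shown because both are expressed here but at unlike levels. The sequences are from RefSeq on GRCm38.p6, read 5′ to 3′ on the minus strand, for Ihh at chr1:74951673-74951922 and for Dhh at chr15:98898541-98898790. They were searched on both strands, together with the 50 bases after the start, for the GLI site GACCACCCA, its core ACCACCC, the NR5A site CAAGGTCA, the forkhead site GTAAACA and the cAMP response element TGACGTCA, and neither gene held any of these letters.
Ihh: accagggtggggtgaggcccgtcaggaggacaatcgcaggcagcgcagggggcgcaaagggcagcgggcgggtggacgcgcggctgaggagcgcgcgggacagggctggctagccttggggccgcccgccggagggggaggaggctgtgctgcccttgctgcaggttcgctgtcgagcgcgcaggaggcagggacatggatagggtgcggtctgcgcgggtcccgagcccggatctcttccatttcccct
Dhh: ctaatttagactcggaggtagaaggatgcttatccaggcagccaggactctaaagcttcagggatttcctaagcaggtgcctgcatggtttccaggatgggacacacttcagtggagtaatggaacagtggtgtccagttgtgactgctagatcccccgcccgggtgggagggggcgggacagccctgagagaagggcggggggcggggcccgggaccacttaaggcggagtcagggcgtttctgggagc
The upstream stretch was 72.0% G and C for Ihh and 59.6% for Dhh. Among all 32851 RefSeq promoters searched, the 5 motifs were present in 0.253%, 4.61%, 1.56%, 3.65% and 1.79% in the order given above, and the core lies within the longer GLI site.

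Ihh (ENSMUSG00000006538, chromosome 1, 74945315 to 74951672, minus strand, GRCm38) encodes Indian hedgehog. Its level was 105, 103 and 114 FPKM in PBS replicates 1, 2 and 3 and 81.8, 58.7 and 71.4 FPKM in CTX replicates 1, 2 and 3. The highest CTX sample lay under the lowest PBS sample, and the CTX samples stood at 76.4%, 54.8% and 66.6% of the PBS mean. The mean was 107 ± 5.90 FPKM in PBS and 70.6 ± 11.6 FPKM in CTX (SD, n = 3 each), 34.1% lower. They rest on 5619 to 5730 reads per PBS sample and 3177 to 4521 per CTX sample. The log2 fold change was -0.61 with a SE of 0.13 and a 95% interval from -0.92 to -0.30, and the adjusted p in limma was 0.0835, so Ihh did not pass the test. The adjusted p was 0.0423 without CTX replicate 2, with a log2 fold change of -0.49, and 0.0390 without CTX replicate 1, with -0.72, both short of a 2-fold change. It was 0.275, 0.284 and 0.247 without PBS replicate 1, 2 or 3 and 0.211 without CTX replicate 3. In a bulk sample, fewer Ihh-expressing cells and less Ihh RNA per cell cannot be told apart.

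Dhh (ENSMUSG00000023000, chromosome 15, 98891152 to 98898540, minus strand) encodes desert hedgehog. It was measured at 10.7, 10.8 and 11.7 FPKM in the PBS samples and at 10.3, 10.8 and 9.99 FPKM in the CTX samples. The groups overlapped, and CTX replicate 2, the lowest sample for Ihh, was the highest CTX sample for Dhh. The log2 fold change was -0.10 with a 95% interval from -0.27 to 0.07 and an adjusted p of 0.457 in limma, so a fall below 0.830-fold or a rise above 1.05-fold lay outside the interval. Without CTX replicate 2 the difference was -0.13 with an adjusted p of 0.375. Of its exon bases, 12.4% are shared with Rhebl1 on the same strand and 25.2% with Gm49442 on the other, so reads of these bases are uncertain.

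Dhh varied little between samples, so the ratio of both ligands largely restates Ihh. The separation of the groups by Ihh was a pattern of 14.1% of all tested genes. Ihh stood at 9.79, 9.46 and 9.74 times the FPKM of Dhh in the PBS samples, within a narrow range. The ratio was 7.98, 5.44 and 7.14 in the CTX samples, all of them lower. Ihh made up 90.4% to 90.7% of the summed FPKM of both ligands in PBS and 84.5% to 88.9% in CTX. Whether the log2 fold changes of both ligands differed was not tested. Shh, the other mammalian Hedgehog ligand, had 0 reads in all 6 samples, which at 3 reads allows a level of up to 0.0651 FPKM.

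Smo (ENSMUSG00000001761, chromosome 6, 29735503 to 29761365, plus strand) encodes the membrane protein that passes the signal into the cell. It stood at 24.5, 23.0 and 23.7 FPKM in PBS and at 26.0, 30.7 and 27.2 FPKM in CTX, on 2158 to 3057 reads. No CTX sample overlapped the PBS range, and CTX replicate 2 was the highest. The log2 fold change was 0.23 (95% interval 0.04 to 0.42) with an adjusted p of 0.200 in limma, and 0.16 with an adjusted p of 0.232 without CTX replicate 2.

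Ptch1 (ENSMUSG00000021466, chromosome 13, 63508328 to 63573598, minus strand) encodes the receptor that holds SMO in check and is a target gene of the pathway. It was at 4.21, 3.51 and 3.14 FPKM in PBS and at 4.11, 6.55 and 4.02 FPKM in CTX. CTX replicates 1 and 3 lay within the PBS range, and CTX replicate 2 stood at 1.81 times the PBS mean. The log2 fold change was 0.40 with a 95% interval from -0.12 to 0.92 and an adjusted p of 0.347 in limma. Without CTX replicate 2 it was 0.17 with an adjusted p of 0.535.

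Gli2 (ENSMUSG00000048402, chromosome 1, 118834132 to 119053619, minus strand) encodes the GLI factor that carries most of the first activating signal. It was read at 0.588, 0.596 and 0.485 FPKM in PBS and at 0.779, 0.656 and 0.512 FPKM in CTX, on 54 to 97 reads. The groups overlapped, and the log2 fold change of 0.18 had a 95% interval from -0.48 to 0.84 and an adjusted p of 0.728 in limma. With samples weighted by limma's arrayWeights the sign turned, to -0.12. Without CTX replicate 2 the log2 fold change was 0.16.

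Gli1 (ENSMUSG00000025407, chromosome 10, 127329882 to 127341974, minus strand) encodes the GLI factor that is induced by the pathway and amplifies it. Its level was 0.258, 0.207 and 0.272 FPKM in PBS and 0.155, 0.226 and 0.246 FPKM in CTX. The underlying reads were 23, 19 and 22 for PBS and 14, 20 and 22 for CTX, so the groups overlapped. The summed reads gave a ratio of CTX over PBS of 0.852, with an exact 95% interval from 0.584 to 1.24 that covers counting error only, and of 0.817 (0.528 to 1.25) without CTX replicate 2. In the fit with no filter on low levels the log2 fold change was -0.17, with a 95% interval from -0.86 to 0.52.

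Hhip (ENSMUSG00000064325, chromosome 8, 79965851 to 80058006, minus strand) encodes a membrane protein that binds and sequesters Hedgehog ligands and is another target gene. It was the lowest of the 8 genes, at 0.0866, 0.102 and 0.0680 FPKM in PBS and 0.0790, 0.0373 and 0.148 FPKM in CTX. The reads numbered 14, 17 and 10 in PBS and 13, 6 and 24 in CTX, and the lowest and highest of the 6 samples were both CTX samples. The summed reads gave a ratio of 1.02, with an exact 95% interval for counting error from 0.650 to 1.61, and of 1.31 (0.817 to 2.10) without CTX replicate 2. At this depth no difference in Gli1 or Hhip was detected. The log2 interval for Hhip in the fit with no filter, -0.71 to 0.67, leaves room for changes of either sign.

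Gli2 and Hhip were the only 2 of the 7 genes with a RefSeq promoter entry in which a searched motif was found, and the surrounding bases are shown with the motif in capitals. Gli2 held the GLI core on the opposite strand with its first base 205 bases before the start, at chr1:119053798-119053844. Hhip held the cAMP response element 75 bases before the start, at chr8:80058056-80058103, and both stretches are on the minus strand of GRCm38.p6.
Gli2: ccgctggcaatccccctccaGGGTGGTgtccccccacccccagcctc
Hhip: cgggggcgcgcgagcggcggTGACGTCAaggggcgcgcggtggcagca
The match in Gli2 was of a kind found in 4.61% of all promoters and that in Hhip of a kind found in 1.79%. A match of letters is a description of the sequence, and binding was not measured here.

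Insl3 (ENSMUSG00000079019, chromosome 8, 71689214 to 71690575, plus strand) is the theca marker among the 8 genes. PBS samples held 3, 4 and 4 of its reads and CTX samples 4, 9 and 13, or 0.270, 0.350 and 0.396 FPKM against 0.354, 0.814 and 1.16 FPKM. CTX replicate 1 lay within the PBS range, and CTX replicates 2 and 3 lay above it. Its difference on the log2 scale was 0.89 with a SE of 0.45, a 95% interval from -0.20 to 1.98 and an adjusted p of 0.322 in limma. The summed reads, 11 and 26, gave a ratio of 2.30 with an exact 95% interval for counting error from 1.10 to 5.16, and without CTX replicate 2 the ratio was 2.25 with an interval from 0.992 to 5.30. Insl3 passed the mean level of 0.5 FPKM only through CTX replicates 2 and 3. Without CTX replicate 2 its log2 fold change was 0.80, with a pseudocount of 1 in place of 0.1 it was 0.38, and with arrayWeights it was 1.52 with an adjusted p of 0.00548.

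The annotation of Insl3 bears on these few reads. Its 2 exons hold 219 and 404 bases, and the second is also the last exon of an annotated transcript of Jak3 on the same strand, so 64.8% of its exon bases are shared. Jak3, a kinase of cytokine receptors, had 429, 404 and 324 reads in PBS and 528, 751 and 656 reads in CTX, every CTX sample above every PBS sample. Its log2 fold change was 0.68 with an adjusted p of 0.0992 in limma. How many of the reads given to Insl3 came from Jak3 transcripts was not tested.

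**Figure D2:**
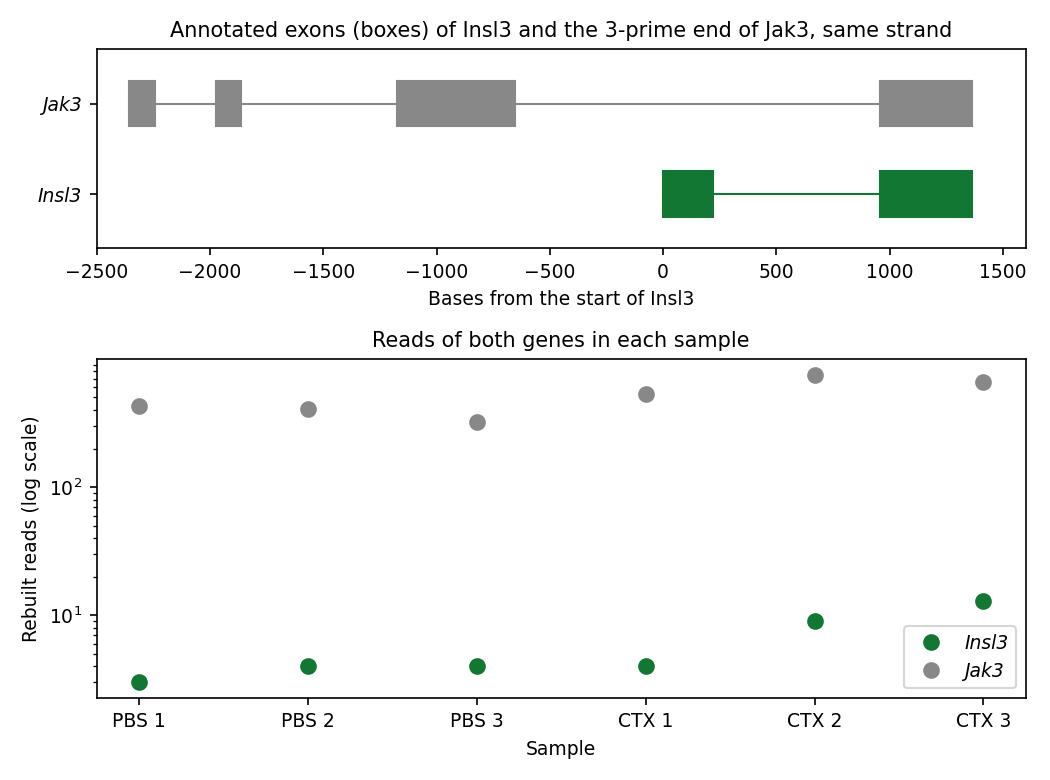
Above, annotated exons of Insl3 and of the 3′ end of Jak3 as boxes, in bases from the start of Insl3. Below, rebuilt reads of both genes in each sample on a log axis, with Insl3 between 3 and 13 reads and Jak3 between 324 and 751.

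The Hedgehog pathway list held 48 genes, of which 40 were tested and 0 were DEGs in limma, with 9 at an unadjusted p below 0.05, or 22.5%, beside 19.6% of all tested genes. voom also called 0 of them. The groups were fully separated, with CTX higher for 8 of the 40 and lower for 9, or 20% and 22.5% beside 15.0% and 14.1% of all tested genes. Both shares of separated genes were above those of all tested genes, a difference that was not tested. The median log2 fold change was 0.04 beside -0.01 over all tested genes, and 0.02 without CTX replicate 2. By role, the ligand-processing genes Hhat, Disp1, Scube1, Scube2 and Scube3 had a median log2 fold change of 0.11, the 22 intracellular regulators 0.04 and the co-receptors Cdon, Boc and Gas1 -0.33, which became 0.12, 0.01 and -0.21 without CTX replicate 2. Scube2 passed the filter on low levels through CTX alone, at 0.0743 to 0.257 FPKM in PBS and 0.319, 1.87 and 0.685 FPKM in CTX. The most abundant regulators were Prkaca, the catalytic subunit of protein kinase A, Csnk1a1, a casein kinase, and Evc2, which acts with SMO at the cilium. Evc2 stood at 25.5, 26.0 and 26.7 FPKM in PBS and at 25.5, 54.0 and 35.6 FPKM in CTX, with overlap and an adjusted p of 0.332. Without CTX replicate 2 its log2 fold change was 0.21.

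Mycn, a growth-promoting transcription factor that Hedgehog signalling induces in several tissues, was the 1 pathway gene with an adjusted p below 0.05, short of a 2-fold change. It stood at 20.96, 21.3 and 22.3 FPKM in PBS and at 13.0, 13.6 and 16.4 FPKM in CTX, with no overlap. In limma its log2 fold change was -0.59 with an adjusted p of 0.0489, close to the threshold. The adjusted p was 0.199, 0.222 and 0.188 without PBS replicate 1, 2 or 3 and 0.0584 and 0.0522 without CTX replicate 1 or 2, and it remained below 0.05 without CTX replicate 3, at 0.0373. It was also above 0.05 with a replicate block (0.133), no filter (0.0747), eBayes without trend (0.0894), scaling to library totals (0.0544) and a pseudocount of 0.01 (0.0506). Ccnd2 and Cdk6, which encode a cyclin and a kinase of G1, were also lower in every CTX sample than in every PBS sample, with log2 fold changes of -0.22 and -0.59 and adjusted p-values of 0.184 and 0.114. These log2 fold changes were -0.26 and -0.47 without CTX replicate 2, with adjusted p-values of 0.103 and 0.0937. Bcl2, which encodes an inhibitor of apoptosis, was the fourth tested gene of this group and lay the other way, at 0.453 to 0.564 FPKM in PBS and 0.579 to 0.696 FPKM in CTX, with a log2 fold change of 0.26 and an adjusted p of 0.581.

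Gas1, a membrane co-receptor that helps ligand reach PTCH1, was measured at 15.0, 13.7 and 12.5 FPKM in PBS and at 16.3, 0.742 and 11.8 FPKM in CTX. CTX replicate 2 alone was low, and the other CTX samples were just above or just below the PBS range. Its log2 fold change of -1.33 had a 95% interval from -3.94 to 1.28 and an adjusted p of 0.509 in limma, and without CTX replicate 2 it was 0.02. Gli3, the GLI factor that mostly represses, stood between 0.695 and 0.889 FPKM in PBS and between 0.982 and 1.24 FPKM in CTX, with a log2 fold change of 0.39 and an adjusted p of 0.331. These were 0.45 and 0.340 without CTX replicate 2.

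**Figure D3:**
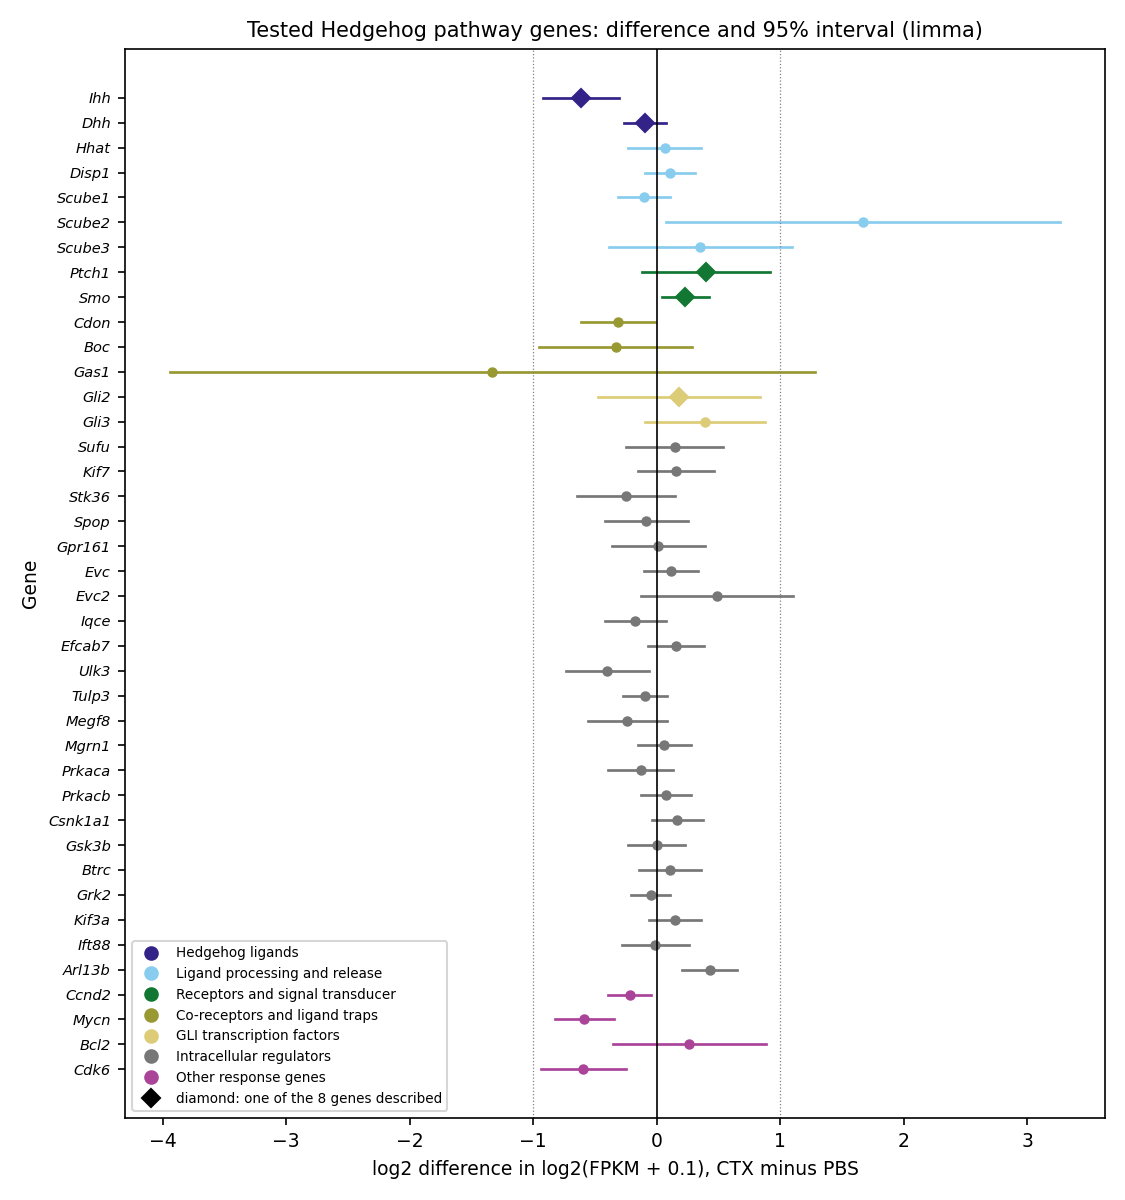
Difference in log2(FPKM + 0.1), CTX minus PBS, for the 40 tested Hedgehog pathway genes, with the 95% interval from limma as a line and colours for roles. Dotted lines mark a 2-fold change, diamonds mark genes among the 8, and the interval of Ihh runs from -0.92 to -0.30.

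The theca lists held 24 genes, of which 21 were tested and 1 was a DEG, against 0.961% of all tested genes. This was Acta2, the smooth muscle actin of the outer theca and of vessel walls, at 7.66 to 8.60 FPKM in PBS and 14.7 to 20.5 FPKM in CTX. It rose with a log2 fold change of 1.08 and an adjusted p of 0.0166 in limma. The adjusted p was 0.0984, 0.102 and 0.0855 without PBS replicate 1, 2 or 3 and 0.0824 without CTX replicate 3, and the log2 fold change was 0.95, under 2-fold, without CTX replicate 2. In that last fit the 1 theca gene called was Lum, a matrix proteoglycan. Des and Actg2, the other tested smooth muscle markers, overlapped between the groups and were lowest among CTX samples in replicate 2. Their log2 fold changes were 0.05 and 0.35, with adjusted p-values of 0.971 and 0.566 in limma, and 0.55 and 0.61 without CTX replicate 2. The rest of the smooth muscle list fell under 0.5 FPKM.

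The steroidogenic part of these lists shows how Insl3 stood to the other genes of theca cells. Cyp17a1, the theca enzyme of androgen synthesis, chosen for display after its values were seen, was at 30.8, 32.9 and 34.4 FPKM in PBS and at 29.6, 1.25 and 12.4 FPKM in CTX. The 2 CTX samples in which Insl3 was highest, on only 9 and 13 reads, were those in which Cyp17a1 was lowest. The level of Cyp17a1 was 114, 93.8 and 86.8 times that of Insl3 in PBS and 83.6, 1.53 and 10.7 times in CTX. These ratios rest on 3 to 13 reads of Insl3 per sample, and 64.8% of its exon bases are shared with Jak3. Cyp11a1, which starts steroid synthesis, was at 544 to 564 FPKM in PBS and at 727, 14.4 and 486 FPKM in CTX, and Lhcgr, the receptor of LH, at 108 to 113 FPKM in PBS and at 129, 1.48 and 53.1 FPKM in CTX. The log2 fold changes of Cyp17a1, Cyp11a1 and Lhcgr were -2.04, -1.68 and -2.33 with all samples. Without CTX replicate 2 they were -0.76, 0.10 and -0.43. GCs also express Cyp11a1, Lhcgr, Hsd3b1, Star and Nr5a1, so these genes do not mark theca cells alone.

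None of the 9 steroidogenic markers was a DEG, against 0.961% of all tested genes. At an unadjusted p below 0.05 in limma there was 1, Aldh1a1, beside 19.6% of all tested genes. Aldh1a1 lay at 7.57 to 8.73 FPKM in PBS and 11.7 to 17.8 FPKM in CTX. Its log2 fold change was 0.73 with an adjusted p of 0.108, and 0.54 with 0.0266 without CTX replicate 2, both short of a 2-fold change. The median log2 fold change of the 9 markers was -0.86, or -0.19 without CTX replicate 2. Their summed FPKM lay between 3488 and 3856 in PBS and was 4065, 677 and 2640 in CTX replicates 1, 2 and 3. The 9 mesenchyme markers, which theca shares with stroma, summed to 31.9 to 33.2 FPKM in PBS and to 59.1, 21.1 and 47.6 in CTX. None was a DEG, and 1 had an unadjusted p below 0.05 in limma. Their median log2 fold change was 0.42, or 0.69 without CTX replicate 2. In that second fit 7 had an unadjusted p below 0.05, beside 2871 of all 14463 tested genes. Lum and Col1a2 then had adjusted p-values of 0.0123 and 0.0341, with log2 fold changes of 1.08 and 0.88. For 15 of the 21 tested theca genes, or 71.4%, CTX replicate 2 was the CTX sample farthest from the PBS mean, beside 55.3% of all tested genes. The part of cell composition in the values of Ihh, Ptch1 and Insl3 was not tested.

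**Figure D4:**
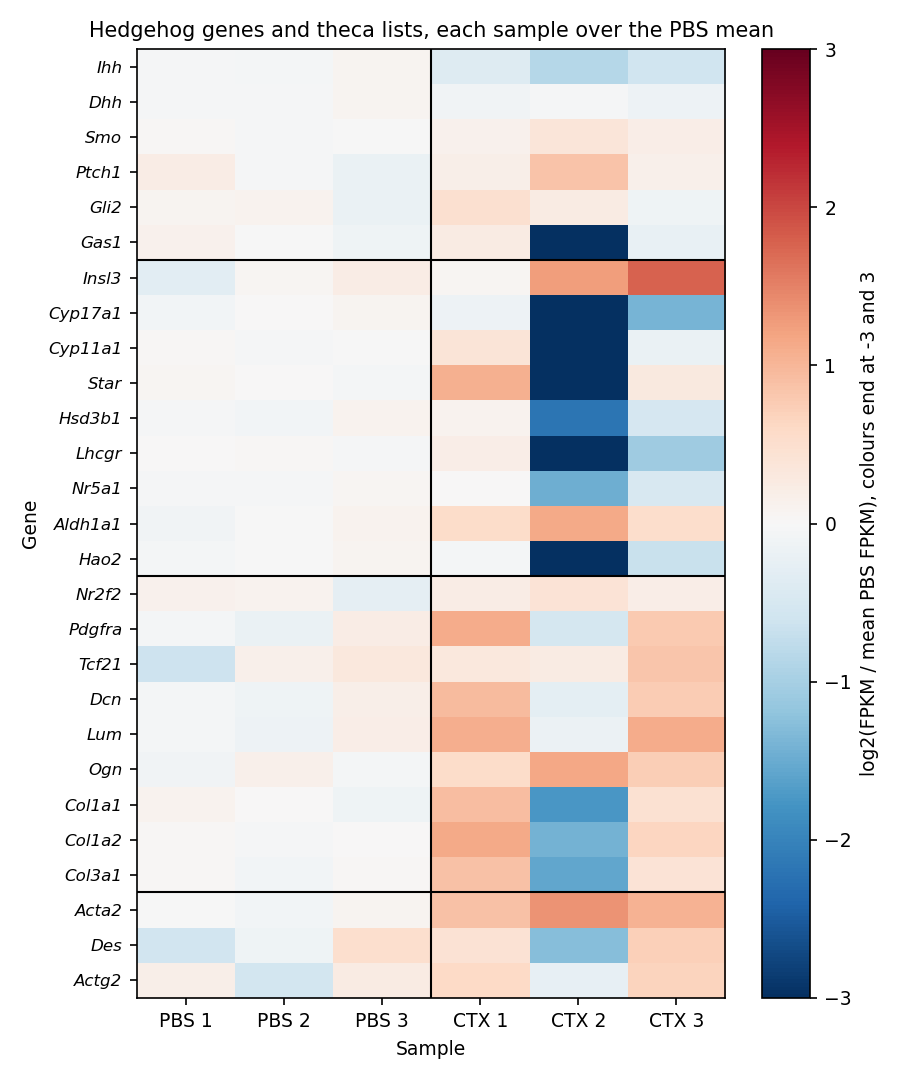
log2 of each sample's FPKM over the PBS mean (colour, ending at -3 and 3) for Hedgehog genes, the steroidogenic markers from Insl3 down, the mesenchyme markers from Nr2f2 down and the smooth muscle markers from Acta2 down. CTX replicate 2 is dark blue for Gas1, Cyp17a1, Cyp11a1, Star, Lhcgr and Hao2, while it is red for Ptch1, Insl3, Aldh1a1, Ogn and Acta2.

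Markers of other cells were also measured beside these values. The summed FPKM of 10 oocyte markers overlapped between the groups (37.5 to 79.2 in PBS and 51.7 to 92.9 in CTX), with 0 of 9 tested called. The 7 endothelial markers summed to 6.02 to 6.56 FPKM in PBS and 2.48 to 5.41 in CTX, lowest in CTX replicate 2, with 0 of 2 tested called. Most of this sum was Cdh5, at 3.66 to 4.49 FPKM in PBS and 1.25 to 3.11 FPKM in CTX. Esam and Pecam1, the next in level, overlapped between the groups. The 8 immune markers summed to 17.5 to 19.9 FPKM in PBS and 22.2 to 59.8 in CTX, highest in CTX replicate 2. Most of this sum was Lyz2, at 13.1 to 14.3 FPKM in PBS and 14.7 to 45.8 FPKM in CTX. Cd68, next in level, had no overlap between the groups, at 2.59 to 3.69 FPKM in PBS and 3.91 to 8.97 FPKM in CTX. Its adjusted p was 0.263 in limma, and 0.244 without CTX replicate 2. For 3 of the 4 tested immune markers CTX was higher with no overlap, beside 15.0% of all tested genes. Csf1r, the other tested marker, overlapped. Adgre1 was not tested and overlapped, at 0.225 to 0.236 FPKM in PBS and 0.207 to 0.870 FPKM in CTX. Ptprc overlapped between the groups, at 0.0708 to 0.0983 FPKM in PBS and 0.0640 to 0.0923 FPKM in CTX. Cd3e, which defines T cells, had at most 3 reads in every sample. Of the 4 tested immune markers 1 was called, Cd14, against 0.961% of all tested genes. Its log2 fold change was 1.29 with an adjusted p of 0.0347 in limma. The call was lost when PBS replicate 1, 2 or 3 or CTX replicate 3 was left out (adjusted p of 0.108 to 0.134). It was also lost with a replicate block (0.0978), with no filter (0.0694) and, for its fold, with a pseudocount of 1. The 5 red blood cell markers summed to 319 to 454 FPKM in PBS and 138 to 497 in CTX, lowest in CTX replicate 2. Of the 13 granulosa markers 0 were called, with 4 at an unadjusted p below 0.05, beside 19.6% of all tested genes, and 8 lower in every CTX sample than in every PBS sample, as for Ihh, beside 14.1% of all tested genes. Of the 8, Inhbb, a subunit of activin and inhibin, lay between 1583 and 1658 FPKM in PBS and between 530 and 1069 FPKM in CTX, with an adjusted p of 0.124. Without CTX replicate 2 its log2 fold change was -0.73 with an adjusted p of 0.0332 in limma, short of a 2-fold change. In that fit 7 of the 13 granulosa markers had an unadjusted p below 0.05, beside 2871 of all 14463 tested genes. Amh, the anti-Müllerian hormone, lay the other way, at 48.4 to 51.1 FPKM in PBS and 54.3, 179 and 85.5 FPKM in CTX, with an adjusted p of 0.269. Its log2 fold change was 0.93, and its receptor gene Amhr2 overlapped between the groups with a log2 fold change of 0.37. Without CTX replicate 2 the log2 fold changes of Amh and Amhr2 were 0.46 and 0.11.

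The genes whose profile over the 6 samples was most like that of each tested gene were found by the root mean square difference of centred log2 values among 12001 protein-coding genes. For Ihh the nearest was Tmem97, an endoplasmic reticulum membrane protein, at 51.5, 52.1 and 58.0 FPKM in PBS and 41.7, 29.0 and 36.2 FPKM in CTX, a distance of 0.0231. Aldoa, the glycolytic aldolase, and Ccnjl followed at 0.0340 and 0.0419, and 47 of the genes lay within 0.1 of Ihh. Profiles like those of Dhh and Smo were common, with 2124 and 1285 genes within 0.1. The nearest to Dhh were Nelfa, Dvl2 and Gorasp2, and the nearest to Smo were Mcm4, Rnmt and Gtpbp4. Ptch1 had 31 genes within 0.1, led by Sntb2, Slc8a1 and Mex3a. Being chosen for their likeness to Ptch1, they were highest in CTX replicate 2 as it was. Gli2 had 26, led by Hspa1a, Zhx2 and Bach1. Insl3 had 0, and its nearest genes were Ip6k3, Arg2 and Fbxw25 at distances of 0.152, 0.162 and 0.228.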

How the data were processed

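RNA was extracted from GCs and sequenced by the authors, and the deposited table holds FPKM per gene and sample, with gene length in bases as deposited. Per the labels, the submitters' processing notes name CASAVA 1.8, fastp, HISAT2 2.0.5, featureCounts 1.5.0-p3, DESeq2 1.20.0 and the mm10 build, and strandedness is not given in the sources used here. The table also holds the authors' own group means, fold changes and p-values, which were not used. Coordinates of 98.3% of the gene identifiers equalled those of GENCODE M21 on GRCm38. FPKM times length gave whole reads, within 0.1 of a read, for 100% of values.

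In R 4.3.3, log2(FPKM + 0.1) values of genes averaging 0.5 FPKM or more were compared between the 3 CTX and the 3 PBS samples by limma 3.58.1 (lmFit, then eBayes with trend), with p-values adjusted by the Benjamini-Hochberg method over 14463 genes. A fold change on this scale understates that of low genes. The code was tested on simulated data. Other settings tried were a pseudocount of 1 or 0.01, the filter removed or raised to 5 FPKM, quantile and upper quartile scaling, a replicate block, arrayWeights, eBayes without trend, voom, no fold threshold and each sample left out. Scaling to library totals and the list medians and read ratios without CTX replicate 2 were chosen after seeing the data.

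The genes and lists were chosen with earlier results of these data known. Named beside the 8 genes are called genes, up to 3 genes of the highest level in each list, defining markers near 0 and the 3 nearest profiles of each tested gene. Hhat, Scube2, Scube3, Aldh1a1, Ogn, Lum, Star, Nr5a1, Bcl2, Amh, Amhr2 and Cyp17a1 were named after their values were seen where this rule did not name them. Exact intervals of read ratios are conditional binomial ones. Promoter sequences came from RefSeq, in which 7 of the 8 genes had an entry. Python 3.11.15, pandas 2.3.3, NumPy 2.4.6 and matplotlib 3.10.9 were used for tables and figures.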

Additional observations from a re-analysis of the deposited data

How the results depend on the processing

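The log2 fold changes of Ihh, Dhh, Smo, Ptch1 and Insl3 kept their sign under every alternative run, and that of Gli2 turned to -0.12 with arrayWeights. The log2 fold change of Ihh ranged from -0.72 to -0.49 and its adjusted p from 0.000683 to 0.284. With arrayWeights, 1 of the 8 genes (Insl3, log2 fold change 1.52) and 1 pathway gene (Scube2) were called. Both were under 0.5 FPKM in every PBS sample and were tested only through CTX. The theca genes called were 4 (Cyp17a1, Acta2, Lum and Insl3). Of all tested genes 366 were called higher and 291 lower, against 116 and 23 in the reported fit. With no fold threshold 202 were called higher and 52 lower, and 1 pathway gene (Mycn) was called. At a mean of at least 5 FPKM, where fewer genes are tested, 7 were called lower. With each sample left out in turn, 57 to 142 genes were called higher and 1 to 68 lower, and theca calls numbered 0 to 1. The causes of these shifts were not tested.

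Samples of both groups share replicate numbers 1, 2 and 3. The deviations of same-numbered samples correlated at 0.0556, 0.0242 and 0.0058 across genes, and those of unlike numbers between -0.0756 and 0.0593. These values do not show a pairing, and with 3 samples per group they cannot exclude it. With the replicate block, 48 genes were called higher and 2 lower, with 0 theca calls, 0 pathway calls and 0 of the 8 genes called. Gli1, Hhip and Insl3 rest on at most 24 reads in any sample, so depth limits what can be said of them.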
